A study of Saccharomyces cerevisiae with 7 samples.

Results

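The small ribosomal subunit protein genes of Saccharomyces cerevisiae are the genes whose symbol is RPS followed by a number and, for duplicated genes, the letter A or B. That rule on gene names found 56 of the 5732 genes in the deposited table. They stand for 32 proteins, of which 8 come from 1 gene each and 24 from a pair of paralogs, A and B. All 56 genes matched the RefSeq gene table of the S288C assembly R64 by locus tag and symbol, and all 56 passed the filter on low values that is described with the first comparison.

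The values come from nascent RNA of strain DPY1283, labelled Hsf1-AA and Rpb3-FLAG. Hsf1 is the transcription factor that drives chaperone genes, and AA is read here as anchor-away, a method in which rapamycin carries the tagged protein out of the nucleus by binding it to an anchor. Rpb3 is a subunit of RNA polymerase II, through whose FLAG tag RNA still attached to the polymerase can be purified. The 4 conditions were 30 °C, 30 °C with 1 µM rapamycin, 39 °C, and 39 °C with 1 µM rapamycin. All 4 groups carry both tags. Rapamycin was thus read in tagged cells only, and its own action and the loss of nuclear Hsf1 cannot be told apart. The labels do not say whether the strain carries an allele that makes growth resistant to rapamycin.

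The small subunit, 40S, holds the messenger RNA and the decoding centre of the ribosome. Its proteins lie in a head, which includes the beak, and in a body with a platform. Yeast makes ribosomal proteins from many highly transcribed genes, most of them duplicated, whose promoters are bound by Rap1, Fhl1 and the coactivator Ifh1. The kinase complex TORC1, which rapamycin inhibits in ordinary yeast, keeps these genes active. In yeast they are known to be transcribed less for a time after a shift to heat.

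Each value is the authors' mean normalized read count for 1 condition, and the labels list 1 sample per condition. There is therefore no replicate value, no SD and no test, and a difference is described by its size alone. Estimated library depths were 205000 to 795000 reads. A standard error given below covers counting error only. At a value of 100, counting error is 6.12% of the value at 30 °C, 6.58% with rapamycin, 7.11% at 39 °C and 9.03% at 39 °C with rapamycin. Fewer transcribing cells and less nascent RNA per cell cannot be told apart in such bulk values. The scaling is not named, and the median of all genes was nearly equal in the 4 columns. Values are therefore read as relative to their column, and a change shared by all genes could be missed. Each set of 4 values is in the order 30 °C, 30 °C with rapamycin, 39 °C and 39 °C with rapamycin.

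The 56 genes had a median far above that of all genes at 30 °C and held a smaller share of the nascent RNA at 39 °C. Their median was 286 normalized reads at 30 °C, 264 at 30 °C with rapamycin, 82.2 at 39 °C and 222 at 39 °C with rapamycin. The median of all genes was between 27.9 and 28.98 in the same columns. Together they made up 5.49% of the column total at 30 °C, 5.53% at 30 °C with rapamycin, 1.79% at 39 °C and 3.73% at 39 °C with rapamycin. In reads per gene, not corrected for length, RPS31, whose product is made as a fusion with ubiquitin, was the highest member in every column, with 1729, 1877, 589.7 and 943 normalized reads. RPS22B was the lowest in every column, with 22.8, 19.3, 6.19 and 13.7. RPS22B (chromosome XII, 856442 to 857317) is the one member that overlaps another annotated gene, the small nucleolar RNA gene SNR44. Per kilobase of gene span, introns included, RPS31 was still highest at 30 °C, with 3767 normalized reads per kilobase, and RPS22B lowest, with 26.0. At 39 °C RPS26A was highest on that scale, with 1593 without rapamycin and 2509 with it.

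**Figure D1:**
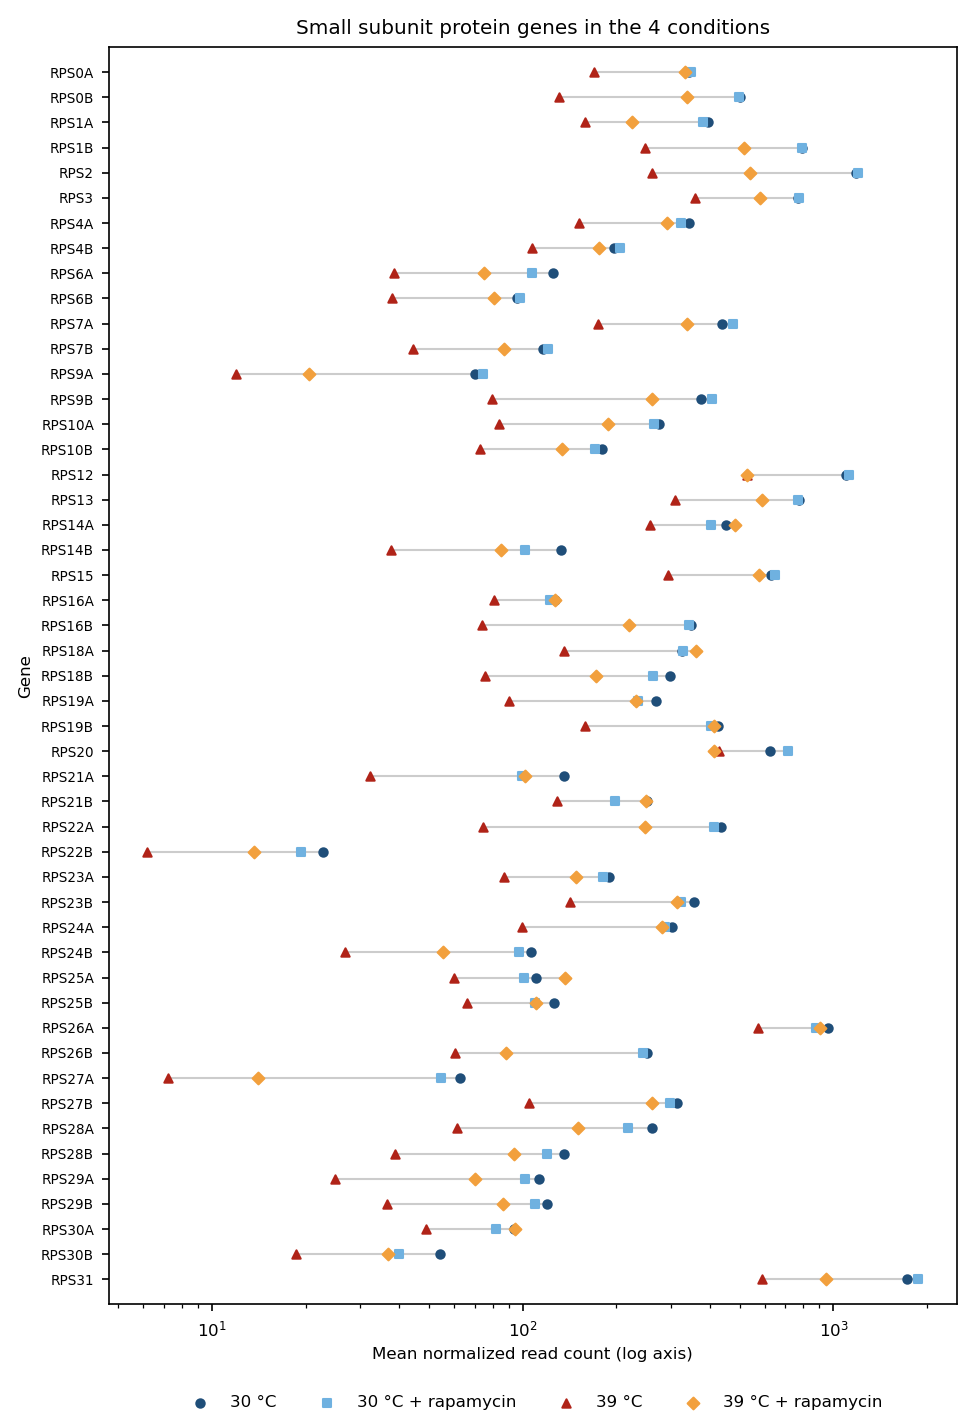
Mean normalized read count (horizontal log axis) of 49 of the 56 small subunit protein genes (rows) in the 4 conditions, 1 authors' mean per point, with a grey line from the lowest to the highest condition. The 39 °C value without rapamycin is the lowest of the 4 for nearly every gene, and for RPS12 and RPS20 the 2 values at 39 °C nearly coincide.

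Heat shock without rapamycin was the widest comparison. All 56 genes were below their 30 °C value, and 46 of them were at least 2-fold lower on the log2(value + 2.851) scale. None was at least 2-fold higher. The background was the 4585 genes left after the lowest 20% of the table by mean value, under 14.4, was set aside. Of these, 17.9% met the same 2-fold limit downwards and 16.1% upwards. The median log2 ratio of the 56 genes was -1.52, a 2.86-fold difference, beside 0.01 for those 4585 genes. The ratios ran from -2.71 to -0.54, so that the members differed by over 2 log2 units among themselves.

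The member with the lowest heat ratio was RPS27A (YKL156W, chromosome XI, 158613 to 159212), 1 of the 2 genes for eS27, a protein of the platform side. It had 62.8, 54.5, 7.20 and 14.1 normalized reads. Both values at 39 °C lay far under both at 30 °C. Its log2 heat ratio was -2.71 with a counting standard error of 0.29, and -1.84 with a pseudocount of 0.5 of the median value. RPS22A (YJL190C, chromosome X, 74910 to 75302), the main gene for uS8 of the body, had 434, 412, 74.3 and 247. Its heat ratio was -2.50 (counting standard error 0.12), and its value at 39 °C with rapamycin lay between the others.

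Both genes for uS4, a body protein that binds ribosomal RNA early in assembly, were among the 5 lowest. RPS9A had 70.2, 74.5, 11.99 and 20.6 normalized reads, with a heat ratio of -2.30 (counting standard error 0.26). RPS9B had 376, 407, 79.8 and 261, with a heat ratio of -2.19 (counting standard error 0.12). RPS16B, 1 of the genes for uS9 of the head, had 348, 344, 74.0 and 219 and the same ratio of -2.19. These genes were alike at 39 °C without rapamycin in being low, and they separated at 39 °C with rapamycin, where RPS9A remained low and RPS9B and RPS16B did not.

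At the other end stood RPS20 (YHL015W, chromosome VIII, 75412 to 75777), the single gene for uS10 of the head. It had 625, 712, 430 and 413 normalized reads, and its heat ratio was -0.54 (counting standard error 0.06). RPS16A, the paralog of RPS16B, was next at -0.63, with 127, 123, 80.7 and 127. RPS26A at -0.74, RPS14A at -0.80 and RPS25A at -0.85 completed the highest 5. Their products are eS26 at the messenger RNA exit, uS11 of the platform and eS25 of the head. RPS4B, RPS30A, RPS25B, RPS21B and RPS0A also did not reach 2-fold, with RPS0A just short of it at a ratio of -0.998.

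Most of the 8 genes without a paralog encode proteins of the head or of the messenger RNA path, and no A or B copy could take their reads. Whether the ubiquitin part of RPS31 shares reads with other ubiquitin genes was not checked. Of these, 7 were at least 2-fold lower with heat, RPS20 being the exception, and their median was -1.21. The median of the 48 duplicated genes was -1.53, with 39 at least 2-fold lower. RPS2, for uS5 near the messenger RNA entry, had 1178, 1198, 259.8 and 539.6 normalized reads and a ratio of -2.17. RPS31 was at -1.55 and RPS13, for uS15, at -1.32. RPS3, for uS3 at the messenger RNA entry, RPS15, for uS19 of the head, and RPS12, for eS12 of the beak, were close together at -1.09, -1.09 and -1.06. The values of RPS3 were 767, 773, 358 and 581, and those of RPS15 were 628, 647, 293 and 574.

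Grouping the genes by the place or the conservation of the protein gave medians that lay closer together than the genes within a group. The 22 genes for head proteins had a median heat ratio of -1.54, with 18 at least 2-fold lower (81.8%). With rapamycin at 39 °C their median was 1.15, with 14 past the limit upwards (63.6%). The 34 genes for body and platform proteins had a median heat ratio of -1.46, with 28 at least 2-fold lower (82.4%). With rapamycin at 39 °C their median was 0.93, with 13 past the limit upwards (38.2%). In the background 17.9% met the limit downwards with heat and 5.37% upwards with rapamycin at 39 °C. The 24 genes whose proteins have a bacterial counterpart had a median heat ratio of -1.57 and the other 32 a median of -1.47. The heat ratios of head and body genes overlapped widely, from -2.19 to -0.54 and from -2.71 to -0.74.

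Rapamycin at 30 °C left the 56 genes close to their untreated values. None of them was at least 2-fold lower or higher, beside 0.371% and 0.0436% of the 4585 background genes. The median log2 ratio was -0.06, with 37 of 56 genes below 0, and the ratios ran from -0.44 to 0.19. The 5 lowest were RPS21A at -0.44, RPS30B at -0.41, RPS14B at -0.37, RPS21B at -0.33 and RPS28A at -0.25, with counting standard errors of 0.12, 0.18, 0.12, 0.09 and 0.08. Both genes for eS21, a body protein next to uS2, are among them. RPS21A had 135, 99.1, 32.3 and 101 normalized reads, and RPS21B had 251, 199, 129 and 249.9. In each of these 2 genes the value with rapamycin at 30 °C was about as high as, or lower than, the value with rapamycin at 39 °C. The 5 highest were RPS20 at 0.19, RPS31 and RPS7A at 0.12, RPS9B at 0.11 and RPS9A at 0.08. For 7 of the 8 genes without a paralog the ratio was above 0, with a median of 0.03.

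At 39 °C the normalized values of most small subunit genes were higher with rapamycin than without it. Of the 56 genes 27 were at least 2-fold higher with rapamycin at 39 °C than without it, and none was at least 2-fold lower. In the background of 4585 genes 5.37% met that limit upwards and 2.88% downwards. The median log2 ratio of the members was 0.97, a 1.96-fold difference, beside 0.02 for the 4585 genes. The 39 °C column without rapamycin serves both this ratio and the heat ratio above, so a gene that is low in it by error is moved in both. With every column scaled to the same total, 38 of the 56 genes were at least 2-fold higher and the median was 1.09, while the median of all genes became 0.13. The share of all genes past 2-fold was not computed at that scaling.

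Among the 5 highest with rapamycin at 39 °C were RPS22A at 1.70, RPS9B at 1.67 and RPS21A at 1.57. Each of these 3 genes, like nearly every member, had its own lowest value at 39 °C without rapamycin, and stood well above that value with it. The 5 lowest were RPS20 at -0.06, RPS12 at 0.00, RPS1A at 0.50, RPS26B at 0.52 and RPS16A at 0.64. RPS12 (YOR369C, chromosome XV, 1028194 to 1028625) had 1101, 1122, 527 and 527, so that its 2 values at 39 °C were equal within counting error (standard error of the ratio 0.07). RPS20 was likewise at 430 and 413, with a standard error of 0.08. The remaining 54 genes lay between 0.50 and 1.70. With columns scaled to the same total the ratios of RPS20 and RPS12 turned to 0.07 and 0.12.

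The heat ratio within the rapamycin samples compares a pair of columns that the first comparison did not use. With rapamycin, 5 of the 56 genes were at least 2-fold lower at 39 °C than at 30 °C, and none was at least 2-fold higher. In the background 12.8% of genes met the limit downwards and 12.3% upwards, and nothing is read from the members' count beside these shares. Of the 8 genes without a paralog 2 were at least 2-fold lower, which is 25%, with a median of -0.78. The members' median was -0.34, a 1.26-fold difference, with 46 of 56 genes below 0. The 5 lower genes were RPS27A at -1.76, RPS9A at -1.72, RPS26B at -1.43, RPS2 at -1.15 and RPS12 at -1.09, with counting standard errors of 0.31, 0.27, 0.15, 0.06 and 0.06. The 5 highest were RPS25A at 0.42, RPS21B at 0.33, RPS14A at 0.26, RPS30A at 0.20 and RPS18A at 0.14. RPS25A had 110, 101, 60.1 and 137 normalized reads, and its highest value of the 4 was the one at 39 °C with rapamycin.

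**Figure D2:**
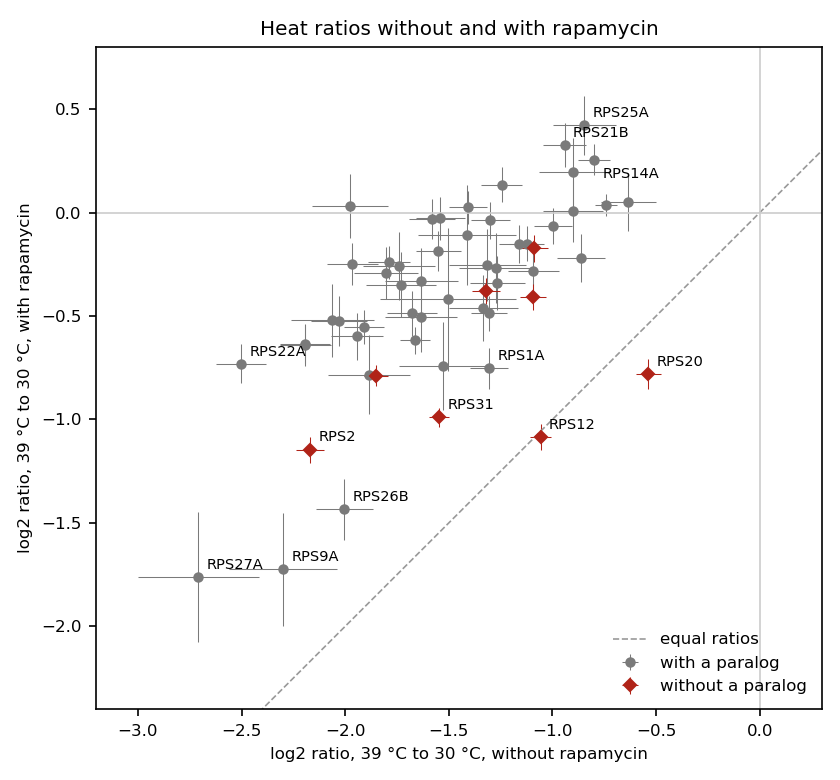
Log2 ratio of 39 °C to 30 °C without rapamycin (horizontal) and with rapamycin (vertical) for the 56 genes, with bars of 1 counting standard error; the dashed line marks equal ratios, and diamonds mark the 8 genes without a paralog. Nearly all genes lie above the dashed line, RPS12 lies on it within its error bars, and RPS20 lies below it.

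The order of the genes was partly kept between the 2 heat ratios, which share no column. Over the 56 genes, which share libraries and are not independent, Spearman's rho was 0.59 and Pearson's r 0.62. RPS27A and RPS9A were lowest or nearly lowest in both, and RPS14A and RPS25A were among the highest in both. RPS20 went the other way, with the highest heat ratio without rapamycin and a ratio of -0.78 with it.

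Heat and rapamycin together, set against untreated cells at 30 °C, gave a median of -0.41. Again 5 genes were at least 2-fold lower, and none was higher. In the background the shares were 13.4% downwards and 13.3% upwards. The 8 genes without a paralog had a median of -0.68, with 2 of 8 at least 2-fold lower. The 5 lower genes were RPS27A at -1.96, RPS9A at -1.64, RPS26B at -1.48, RPS2 at -1.12 and RPS12 at -1.06. The 5 highest were RPS25A at 0.30, RPS18A at 0.15, RPS14A at 0.10, RPS30A at 0.01 and RPS16A at 0.00. RPS26B, the second gene for eS26, had 252, 243, 60.7 and 88.3 normalized reads, with both values at 39 °C far under both at 30 °C.

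The rapamycin ratio at 39 °C minus that at 30 °C had a median of 1.07 over the 56 genes, and for 35 of them this difference was at least 1. It was at most -1 for none. In the background 6.91% had a difference of at least 1 and 3.75% of at most -1. It was highest for RPS21A at 2.01 (counting standard error 0.24) and RPS22A at 1.77 (0.15), and lowest for RPS20 at -0.24 (0.09) and RPS12 at -0.03 (0.08). For the 48 duplicated genes the median was 1.16 and for the 8 single genes 0.80.

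The A and B copies of a pair encode identical or nearly identical proteins, so reads that match both copies could be counted for either, for both or for neither. The sources used here do not say how such reads were treated, so each copy's value is uncertain to that extent. At 30 °C without rapamycin 9 of the 24 pairs had values at least 2-fold apart. Copy A was the higher one in 13 pairs and copy B in 11. At 30 °C with rapamycin 10 pairs were at least 2-fold apart, at 39 °C 11, and at 39 °C with rapamycin 13. Divided by gene span, the count at 30 °C without rapamycin was also 9. For 6 pairs, among them RPS1, RPS25 and RPS26, both copies have the same span.

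The most unequal pair was RPS22, with a log2 ratio of A to B of 4.09 at 30 °C. In RPS9 and RPS27 copy B was the larger one, with ratios of -2.37 and -2.27. In RPS26, RPS7 and RPS14 copy A was, with ratios of 1.92, 1.89 and 1.74. Per kilobase of span the ratios of RPS22, RPS9, RPS27, RPS26, RPS7 and RPS14 were 5.25, -2.50, -1.85, 1.92, 1.80 and 1.93. Spans include introns, and RPS22A spans 393 bases and RPS22B 876. These ratios correct for length only if intron reads were counted, which was not checked here. RPS26A had 961, 879, 573 and 903 normalized reads against 252, 243, 60.7 and 88.3 for RPS26B. RPS14A had 451, 404, 257 and 483 against 133, 102, 37.8 and 84.9 for RPS14B, a gene known in yeast to be held down by its own protein.

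With heat the balance of several pairs was different. The log2 ratio of A to B differed between 39 °C and 30 °C without rapamycin by at least 1 in 4 of the 24 pairs, and in 12 pairs by more than 1.96 counting standard errors. For comparison, it differed by at least 1 in 7 of the 31 duplicated large subunit pairs. The widest difference was in RPS16, at -1.44 and 0.12, a difference of 1.56 (counting standard error 0.18). RPS16A made up 26.7% of the summed reads at 30 °C and 52.2% at 39 °C, as RPS16B was 4.57-fold lower and RPS16A 1.55-fold lower. The other 3 past 1 were RPS26 at 1.26 (0.15), RPS27 at -1.16 (0.31) and RPS21 at -1.03 (0.21). Neither RPS27 nor RPS21 was past 1 with a pseudocount of 0.5 of the median value, at -0.39 and -0.80, where RPS22 was at -1.48. RPS22 at -0.999 (0.35) and RPS14 at 0.94 (0.19) followed. In RPS16 and RPS0 the order of the copies turned: RPS0A and RPS0B, for uS2 of the body, had 343 and 501 normalized reads at 30 °C and 170.1 and 131 at 39 °C.

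Other pairs kept their balance within counting error. RPS7 differed by 0.03 (0.19), while both copies were lower by more than 2-fold. In RPS9 the ratio was -2.37 at 30 °C and -2.48 at 39 °C. The copy that was lower at 30 °C had the lower heat ratio in 14 of the 24 pairs, so the smaller copy was not regularly the one that differed more. Summed over A and B, 21 of the 24 pairs were at least 2-fold lower with heat, with a median of -1.49.

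With rapamycin at 30 °C the A to B ratio differed by at most 0.24 in either direction, and in none of the 24 pairs by more than 1.96 counting standard errors. At 39 °C it differed by more than that in 7 pairs, and by at least 1 in 1 pair. That pair was RPS9, at -1.01 (counting standard error 0.37), where RPS9B was 3.19-fold higher with rapamycin and RPS9A 1.58-fold higher. RPS9 was at -0.94 and no pair past 1 where the pseudocount was 0.01 of the median value, and with 0.5 of it RPS9 was at -1.14 and RPS22 at 1.11. RPS16 at -0.89 (0.21), RPS22 at 0.82 (0.43), RPS21 at 0.63 (0.24) and RPS1 at -0.55 (0.15) were among the next. In RPS16, RPS22, RPS21 and RPS1 the difference was opposite in sign to that with heat, and both differences share the 39 °C column without rapamycin. RPS26 did not follow, since copy A had 90.4% of the summed reads at 39 °C without rapamycin and 91.1% with it, against 79.2% at 30 °C.

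**Figure D3:**
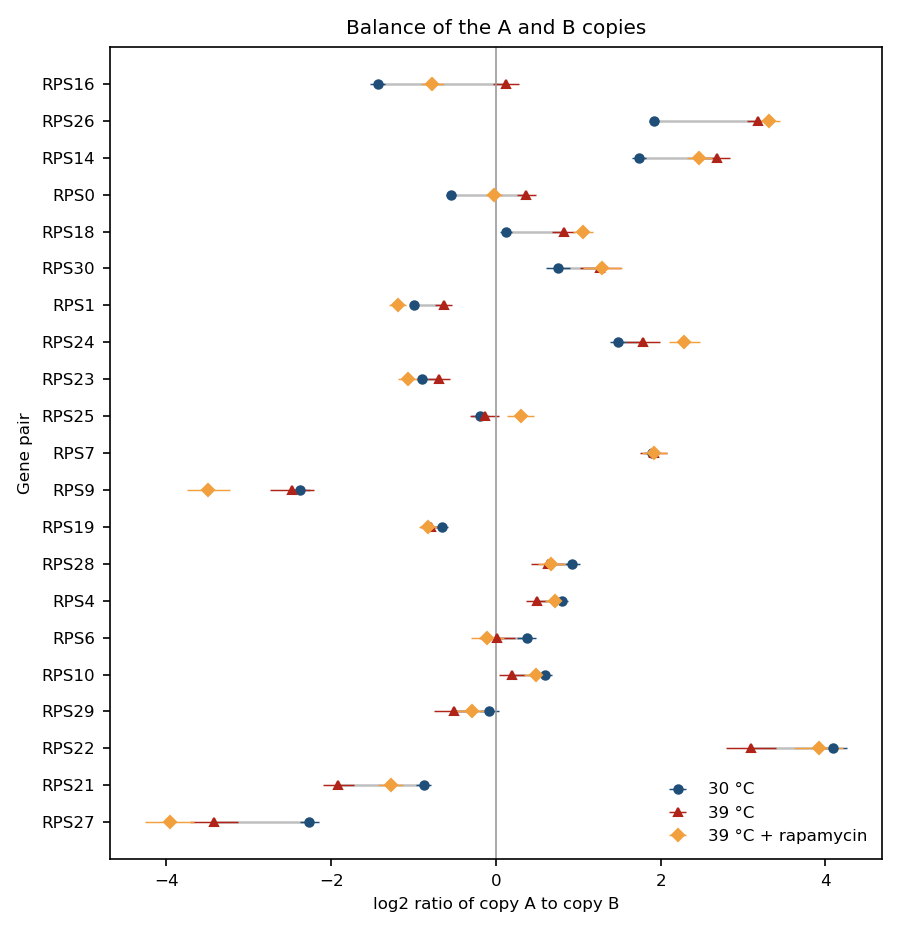
Log2 ratio of copy A to copy B (horizontal) for 21 of the 24 pairs of small subunit genes at 30 °C, 39 °C and 39 °C with rapamycin, with bars of 1 counting standard error; a grey line joins 30 °C and 39 °C. RPS16 moves furthest towards copy A with heat and RPS27 furthest towards copy B at the pseudocount of 2.851, while RPS7 stays in place.

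The upstream neighbours of these genes were also read. For 30 of the 56 genes the nearest annotated gene upstream points the other way and has a row in the table. The bases between them ran from 295 for RPS28A and GLN4 to 2030 for RPS3 and RHO5. Whether such genes share a promoter was not tested. In 4 of these 30 the neighbour is itself a ribosomal protein gene. RPS16A lies 720 bases from RPL13B, RPS16B 634 bases from RPL13A, RPS22A 630 bases from RPL39 and RPS15 719 bases from RPP2A. In the RPS16 regions the small and large subunit genes ranked opposite ways. RPS16A had a heat ratio of -0.63 beside -1.28 for RPL13B, and RPS16B had -2.19 beside -0.74 for RPL13A. RPS22A had -2.50 beside -1.28 for RPL39, and RPS15 had -1.09 beside -1.01 for RPP2A.

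For the other 26 the median heat ratio was -1.59 for the small subunit gene and -0.13 for its neighbour. Of the 26 neighbours 5 met the 2-fold limit downwards and 3 upwards, while 23 of the 26 small subunit genes were at least 2-fold lower. In the background 17.9% of genes met the limit downwards and 16.1% upwards. Nothing is read from the neighbours' counts beside these shares. The lowest neighbours were TSR1 beside RPS29B at -4.08, UTP6 beside RPS18A at -3.13, RKI1 beside RPS7A at -2.93 and RRP5 beside RPS10B at -2.57. The bases between the genes of these pairs were 820, 1020, 1465 and 1290. TSR1, UTP6 and RRP5 are ribosome assembly genes. The highest was YOR292C beside RPS10A at 1.79, where RPS10A was at -1.68.

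**Figure D4:**
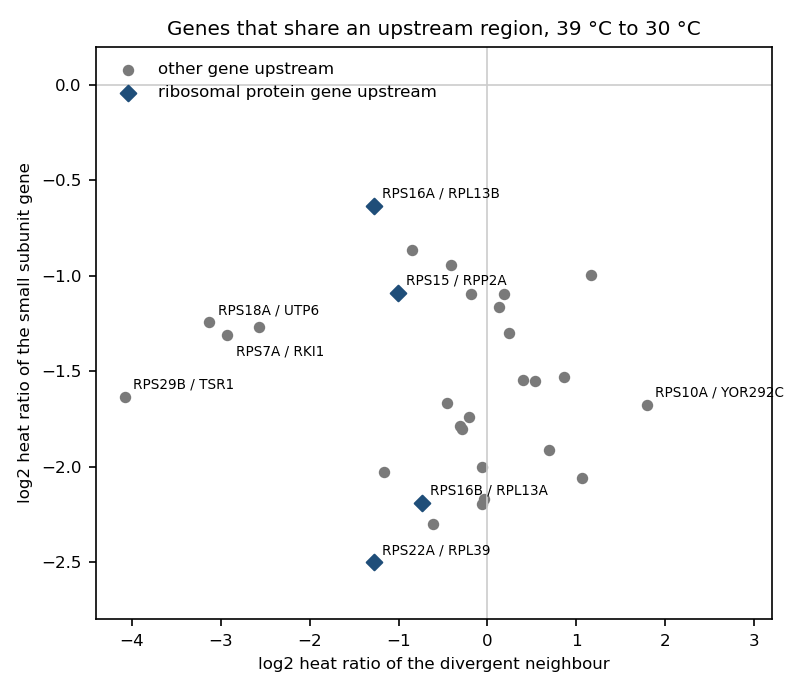
Log2 ratio of 39 °C to 30 °C without rapamycin for 30 small subunit genes (vertical) and for the divergent gene upstream of each (horizontal); diamonds mark neighbours that are ribosomal protein genes. All small subunit genes lie under 0, from RPS16A at -0.63 to RPS22A at -2.50, whereas the neighbours spread from -4.08 to 1.79.

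The large subunit protein genes, 73 by the same kind of rule, of which 72 passed the filter, were close to them. Their medians stood at -1.52 with heat, -0.05 with rapamycin at 30 °C, 1.098 with rapamycin at 39 °C and -0.31 with heat in the rapamycin samples. At least 2-fold lower with heat were 60 of 73, and 43 of 73 were at least 2-fold higher with rapamycin at 39 °C. The 5 stalk protein genes had a higher median heat ratio, at -0.82, with 2 at least 2-fold lower. The 30 genes for the small subunit of the mitochondrial ribosome, which has its own set of proteins, had a median heat ratio of -0.08, and none of them was past 2-fold in either direction in the 5 comparisons.

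The list of 40S assembly and escort genes had a lower median heat ratio than the small subunit genes. It also holds NMD3, ASC1 and STM1, which are not 40S assembly or escort genes, at heat ratios of -3.31, -1.23 and -0.64. Its counts and medians therefore cover more than such genes. Of its 22 genes with a row, 18 met the 2-fold limit downwards (81.8%) and 1 upwards (4.55%), with a median of -2.08. The background shares were 17.9% and 16.1%. With rapamycin the heat ratio had a median of -1.64, whereas the median of the small subunit genes was -0.34 there. In that comparison 14 of the list were at least 2-fold lower (63.6%), beside 12.8% of the background. The 1 gene past the limit upwards with heat without rapamycin was YAR1, whose product escorts Rps3 to the ribosome, and HRR25, RIO1 and STM1, at 0.20, -0.54 and -0.64, lay within the limit. YAR1 had 37.7, 29.2, 301 and 16.3 normalized reads, with log2 ratios of 2.91 for heat (counting standard error 0.15) and -3.99 for rapamycin at 39 °C (0.28). It was highest at 39 °C without rapamycin, the condition in which RPS3, like nearly every small subunit gene, was lowest. No link between YAR1 and RPS3 was tested, and the genes next to YAR1 were not read. TSR2, which encodes the escort of eS26, had 25.8, 28.1, 2.78 and 3.62.

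The list of 21 regulators of ribosomal protein gene transcription had 3 genes at least 2-fold lower with heat and none higher, with a median of -0.25. That is 14.3% of the list beside 17.9% of the background, so the count does not set the list apart. IFH1 had 67.6, 67.7, 16.1 and 22.6 normalized reads, a heat ratio of -1.89 without rapamycin and -1.47 with it. FHL1 was at -1.001, with 40.4, 29.4, 18.8 and 15.1, and UTP22, which takes part in a complex with Ifh1 and in ribosome assembly, was at -1.92. SFP1, an activator of these genes, had 49.6, 56.1, 75.6 and 100.2. With rapamycin at 39 °C none of the 21 was past 2-fold, the lowest being TOR1 at -0.84 and the highest IFH1 at 0.42.

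**Figure D5:**
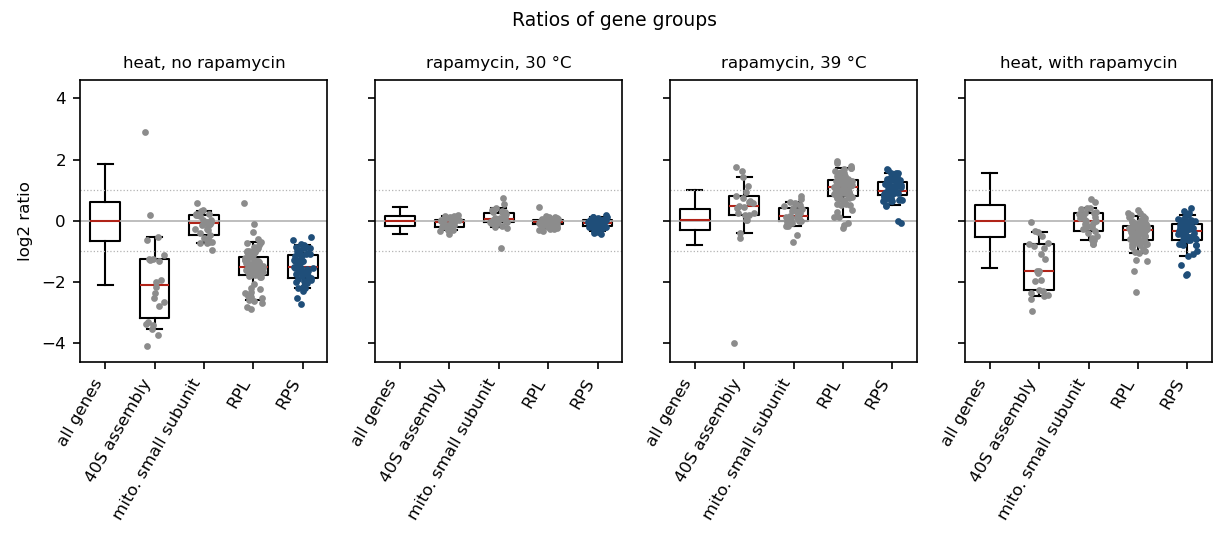
Log2 ratios in 4 comparisons for all 5732 genes, the 22 genes of the 40S assembly list and 30 genes of the mitochondrial small subunit. Also drawn are 73 large subunit genes (RPL) and 56 small subunit genes (RPS). Boxes show quartiles and the median, whiskers the 5th to 95th percentile, points single genes, and dotted lines 2-fold. RPS and RPL medians are -1.52 and -1.52 with heat. With heat in the rapamycin samples they are -0.34 and -0.31, where the 40S assembly list stands at -1.64.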

How the data were processed

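Per the file headers, the authors deposited 1 average normalized read count (a signal value) per gene and condition. Per the submitters' processing notes, HTSeq and the genome build sacCer3 were used. The sources used here do not name the aligner, strand setting, scaling or handling of reads with several placements. The 4 columns were matched to conditions by their header abbreviations. Low values under 6 fell within 0.0055 of sums of 2 steps per column, for 95.4% to 100% of them against 5.38% to 24.3% of evenly spaced values, so 2 averaged libraries were assumed behind each column. Counting errors take the lowest value of a column as 1 read per library, which is assumed. Log2 ratios were computed after adding 2.851, 0.1 of the median value. Genes under the 20th percentile of the mean, 14.4, were left out of the 4585 used as background. The script was tested on simulated data. Named were the 5 highest and 5 lowest members of each comparison, the genes without a paralog and the 6 widest pairs per paralog measure. Members and lists were chosen with earlier results of these data known. RPP1, an RNase P gene caught by the rule for stalk genes, was removed after its row was seen, and DIM1 matched no row. Protein and promoter sequences were not used here, so the planned motif search and coding lengths were dropped and gene span took their place. Alternatives covered the pseudocount, scaling, fold, low-value filter and treatment of paralogs. The genes of 4 proteins are counted in every summary but are not reported here by name, also where the rule takes them. The 3 Hsf1 binding samples were not analysed here. Python 3.11.15, numpy 2.4.6, pandas 2.3.3 and scipy 1.17.1 were used.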

Additional observations from a re-analysis of the deposited data

Results flagged for a closer look

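In 4 genes of the pairs RPS14 and RPS21 a ratio under the same contrast had opposite signs in 2 groups, each beyond 3 counting standard errors. The difference itself was not tested, and each group is 1 authors' mean. With rapamycin, RPS21A was at -0.44 at 30 °C and 1.57 at 39 °C, RPS21B at -0.33 and 0.94, and RPS14B at -0.37 and 1.11. With heat, RPS14A was at -0.80 without rapamycin and 0.26 with it, and RPS21B at -0.94 and 0.33.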

How the results depend on the processing

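No small subunit gene count or median turned its direction among the called values under the alternatives run. Counts moved by construction with a 1.5-fold limit, to 52 higher with rapamycin at 39 °C, 16 lower with heat in the rapamycin samples and 20 lower with both together. The shares of all genes past 1.5-fold were not computed, so nothing is read from these counts. Over the 8 genes without a paralog the counts were 7 lower with heat, 2 higher with rapamycin at 39 °C, and 2 lower in each of the other 2 heat comparisons, with medians of -1.21, -0.78 and -0.68 for heat, heat with rapamycin and both together. With A and B summed over 32 proteins, 28 were lower with heat and 2 in each of those comparisons. The 1 pair changed past 2-fold by rapamycin at 39 °C became 0 with a pseudocount of 0.01 of the median and 2 with 0.5 of it. The change of RPS27 with heat was -0.39 with the latter. Scaled to equal totals, 52 genes were lower with heat, where the median of all genes was -0.17. The share of all genes past the limit was not computed at that scaling. Leaving out replicates was not possible from averaged columns, and the alternative by protein difference was not run. No paired analysis was possible because each condition has 1 averaged column. Counting error limits RPS22B, RPS27A and RPS9A most.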
